A study of Drosophila melanogaster with 12 samples.

Results

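The 10 genes described here belong to the Notch signalling pathway of *Drosophila melanogaster*: the receptor N, its ligand Dl, the DNA-binding factor Su(H), and 7 genes of the Enhancer of split complex, E(spl)mdelta-HLH, E(spl)mgamma-HLH, E(spl)mbeta-HLH, E(spl)malpha-BFM, E(spl)m3-HLH, E(spl)m7-HLH and E(spl)m8-HLH. They were chosen by name and not by a measured value, though with earlier results of these data known. They are 10 of the 13968 protein-coding genes on the 7 chromosome arms of the dm6 gene models, where Dl is listed as Delta. All 10 were found. The quantity followed throughout is called coverage: the share, in percent, of the gene span that lay inside regions called as enriched for elongating RNA Polymerase II (Pol II).

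The data come from chromatin immunoprecipitation sequencing (ChIP-seq) in Kc167 cells, a female line of embryonic hemocyte (blood cell) origin, with an antibody against Pol II that carries phosphate on serine 2 (S2) of the C-terminal domain. This form is typical of Pol II in productive elongation. The series asks how depletion of Argonaute2, a small RNA effector that also binds chromatin, and of LaminB, a component of the nuclear lamina, affects elongating Pol II. There were 6 IP libraries, 2 for each of 3 groups, all collected 3 days after transfection: mock cells that were transfected with neither dsRNA nor siRNA, AGO2 KD cells that received siRNA against AGO2 (labelled siAGO2), and LaminB KD cells that received dsRNA against LaminB (labelled dsLaminB). How far each protein was depleted is not given by these files. The kind of reagent and its target cannot be told apart in this design. No label says that the 2 replicates of a group came from separate cultures, so differences are set against the spread between 2 libraries, which may be technical.

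Notch is a cell surface receptor that is cleaved when it binds Delta or Serrate on a neighbouring cell. The freed intracellular domain enters the nucleus and joins Su(H), which turns from a repressor into an activator of its targets. The E(spl) genes are the classic targets and stand side by side on chromosome arm 3R. The HLH genes among them encode basic helix-loop-helix repressors that recruit the co-repressor Groucho, and the BFM genes encode small proteins of the Bearded family, which restrain the ligand side of the pathway. In fly hemocytes, Notch signalling is known for its part in the crystal cell lineage.

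Called regions were found over 5 of the 10 genes, N, Dl, Su(H), E(spl)mbeta-HLH and E(spl)m3-HLH, and each of the 5 had a region in all 6 lists. The other 5, E(spl)mdelta-HLH, E(spl)mgamma-HLH, E(spl)malpha-BFM, E(spl)m7-HLH and E(spl)m8-HLH, had none in any list. These 5 are short genes of 676 to 1013 bp, at chr3R:25997621-25998633, chr3R:25999851-26000761, chr3R:26010893-26011568, chr3R:26037038-26038019 and chr3R:26040240-26041008 in the same order. Among all 13968 genes, 31.5% had a region in all 6 lists and 45.5% had one in none. The lists hold no read counts and the depth is unknown, so a gene without a region had no enrichment that passed the authors' threshold, which is not the same as no Pol II.

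The 250 bases before the gene start are printed for Dl, E(spl)mbeta-HLH and E(spl)m3-HLH, whose starts carried a region in every list, and for E(spl)m7-HLH and E(spl)m8-HLH, which had none. They are from the RefSeq dm6 genome, read 5′ to 3′ on the gene's own strand. Capitals mark 4 motifs searched on both strands, with overlapping matches allowed: GTGGGAA and GTGAGAA, cores bound by Su(H), the TATA box TATAAA, and GAGAG, a core of the GAGA factor motif.
Dl: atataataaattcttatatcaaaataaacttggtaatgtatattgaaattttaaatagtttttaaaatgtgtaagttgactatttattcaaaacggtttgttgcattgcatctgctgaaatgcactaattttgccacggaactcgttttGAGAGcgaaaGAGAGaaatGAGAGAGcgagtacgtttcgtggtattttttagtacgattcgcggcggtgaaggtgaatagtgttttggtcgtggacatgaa
E(spl)mbeta-HLH: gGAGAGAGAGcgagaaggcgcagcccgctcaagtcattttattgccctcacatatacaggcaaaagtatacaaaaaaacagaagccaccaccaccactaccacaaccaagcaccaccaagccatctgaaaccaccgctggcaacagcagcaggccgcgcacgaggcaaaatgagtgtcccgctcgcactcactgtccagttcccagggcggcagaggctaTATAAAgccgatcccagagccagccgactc
E(spl)m3-HLH: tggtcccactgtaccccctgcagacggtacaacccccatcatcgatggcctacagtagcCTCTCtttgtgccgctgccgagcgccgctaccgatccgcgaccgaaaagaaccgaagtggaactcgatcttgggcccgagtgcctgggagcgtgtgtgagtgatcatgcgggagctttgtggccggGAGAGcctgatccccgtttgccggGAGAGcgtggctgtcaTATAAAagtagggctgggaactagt
E(spl)m7-HLH: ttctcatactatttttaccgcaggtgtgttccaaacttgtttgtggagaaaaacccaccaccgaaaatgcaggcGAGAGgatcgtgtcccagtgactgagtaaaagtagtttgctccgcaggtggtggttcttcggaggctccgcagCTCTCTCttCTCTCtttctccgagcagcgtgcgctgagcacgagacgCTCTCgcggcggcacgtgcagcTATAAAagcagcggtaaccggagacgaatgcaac
E(spl)m8-HLH: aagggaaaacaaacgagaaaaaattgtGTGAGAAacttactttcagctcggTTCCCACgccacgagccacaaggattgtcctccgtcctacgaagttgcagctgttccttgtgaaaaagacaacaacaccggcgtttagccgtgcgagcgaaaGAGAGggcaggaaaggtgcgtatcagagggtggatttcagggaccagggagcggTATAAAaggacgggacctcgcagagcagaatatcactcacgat
Of the 10 members, E(spl)m8-HLH was the sole gene with a Su(H) core in this window. It had GTGAGAA from −223 to −217 and GTGGGAA on the opposite strand from −199 to −193, positions counted from the gene start. Either core occurred in the same window of 5.35% of all genes. TATAAA on the gene's strand between −45 and −15 was present in 5 of the 7 E(spl) members, E(spl)mbeta-HLH, E(spl)m3-HLH, E(spl)malpha-BFM, E(spl)m7-HLH and E(spl)m8-HLH, against 8.81% of all genes, and in none of N, Dl and Su(H). GAGAG occurred in 7 of the 10 members and in 25.7% of all genes, with 4 matches before Dl and 5 before E(spl)m7-HLH. TATAAA was thus found in E(spl) genes with a region and in E(spl) genes without one. Only these exact letters were searched, so a gene without a match may still hold a variant of the TATA box. A motif match describes the letters in this window and is no evidence of binding.

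The 6 lists differed in size and strength. The mock lists held 7795 and 7957 regions over 12.7 to 13.0 Mb, the LaminB KD lists 7122 to 7309 regions over 10.3 to 10.5 Mb, and the AGO2 KD lists 4122 and 6534 regions over 3.07 and 7.20 Mb, with AGO2 KD replicate 1 the shortest. For regions of like fold enrichment, between 3 and 3.5, the median −log10 q was 13.0 and 12.8 in mock, 8.18 and 9.85 in LaminB KD, and 2.09 and 4.71 in AGO2 KD. Regions of the same enrichment therefore stood closer to the threshold in AGO2 KD, and the part of this in each lower value reported for AGO2 KD was not tested. A region in both mock lists was found for 51.4% of all genes and for 8 of 11 hemocyte markers, among them srp, Hml, Pxn and Pvr, with mock coverage from 0.946% for Ppn to 75.3% for Hml. The other 3, NimC1, He and eater, had none in any list. The counts for neuron, muscle and germline markers in both mock lists were 2 of 4, 1 of 4 and 1 of 4. The targeted genes themselves do not check the knockdown, since RNA interference acts on the transcript: coverage of AGO2 was 55.7% and 33.2% in mock against 4.39% and 18.4% in AGO2 KD, and coverage of Lam, which encodes LaminB, was 85.5% and 83.1% in mock against 82.3% and 79.4% in LaminB KD.

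N, the Notch receptor gene (chrX:3134870-3172221), is 37352 bp long. With all regions kept, it showed the largest difference in coverage from mock among the members, in both knockdowns. Coverage was 20.6% and 24.7% in the mock libraries, 0.964% and 4.39% after AGO2 KD and 7.58% and 6.37% after LaminB KD. Both AGO2 KD libraries lay below both LaminB KD libraries, which lay below both mock libraries. The mean was 22.6% ± 2.86 (SD, n = 2) in mock, 2.67% ± 2.42 after AGO2 KD and 6.97% ± 0.856 after LaminB KD. The difference from mock was −20.0 percentage points for AGO2 KD (pooled SD 2.65) and −15.7 points for LaminB KD (pooled SD 2.11). Each difference exceeded the spread between replicates, with an exact two-sided permutation p of 0.333, the smallest that 2 libraries against 2 can give, so no comparison here can pass 0.05. The size of the N difference depended on the regions kept. With regions of q at 0.01 or less it was −14.2 points for AGO2 KD and −10.9 points for LaminB KD. With the same number of regions kept in each list, the strongest 4122 by −log10 q, the differences from mock were smaller. They were −3.61 points for AGO2 KD and −2.19 points for LaminB KD. In that setting the AGO2 KD difference was larger at E(spl)mbeta-HLH, at −7.06 points, and at E(spl)m3-HLH, at −4.75 points. The LaminB KD difference was then larger at Su(H), at 6.84 points. With all regions kept, AGO2 KD differed from LaminB KD by −4.30 points at N. That was less than at Su(H), at −8.38 points, or E(spl)mbeta-HLH, at −6.34 points.

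The position of the regions shows which portion of N the difference involved. The gene has 9 exon blocks, and the sixth, of 6149 bp, lies 28609 to 34757 bp from the start and encodes most of the receptor. In mock replicate 2, a single region of 7525 bp ran from 27313 to 34837 bp and so spanned this block. In mock replicate 1, the block was partly covered by 3 separate regions, of 1762, 2408 and 362 bp. Neither AGO2 KD library had a region within it, LaminB KD replicate 1 had 2 of 550 and 218 bp, and LaminB KD replicate 2 had 1 of 189 bp at its 3′ end. The last 25% of the gene was accordingly covered to 50.5% and 73.1% in mock, 0% and 1.54% after AGO2 KD and 10.0% and 3.86% after LaminB KD. These downstream regions were weak in mock as well, with a fold enrichment of 1.73 to 2.12 and a −log10 q of 1.29 to 3.10, and none of the 6 lists had a region in the last 500 bp of N.

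Upstream of that block, N kept regions in its introns. A region 8214 to 9211 bp from the start in mock replicate 1 was called at the same place in 5 of the 6 lists, the exception being AGO2 KD replicate 1. A region just before the large exon, 27218 to 28200 bp from the start in mock replicate 1, was called in the same 5 lists, in mock replicate 2 as the left end of the long region. Neither place holds an annotated N exon, so no annotated N transcript starts there. From 25% to 50% of its length, N was at 0% in every list.

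**Figure D1:**
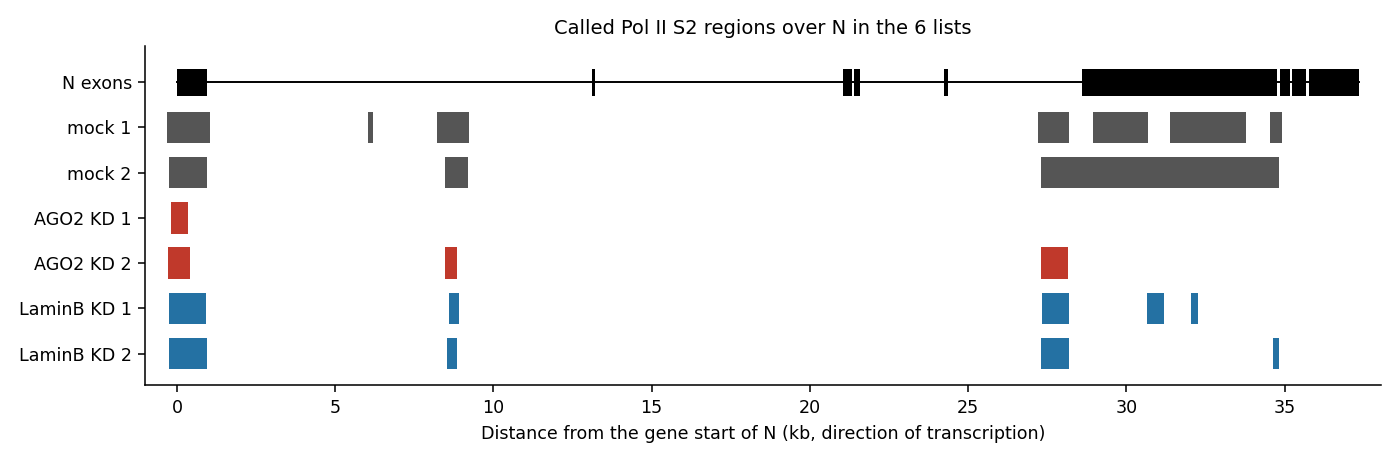
Called regions over N in each of the 6 lists, drawn to scale as distance from the gene start in kb, with the exon blocks on top in black. Mock regions (grey) span much of the large exon near 30 kb, where AGO2 KD (red) has no region and LaminB KD (blue) has short ones, while the region at the gene start is present in all 6 lists.

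The start of N was among the strongest regions of each list. The region there had a fold enrichment of 4.38 and 6.23 in mock, 5.80 and 5.44 after AGO2 KD and 4.43 and 5.07 after LaminB KD, and by fold it ranked within the top 8.81% of its list in every library. Fold enrichment in each knockdown overlapped mock, and both AGO2 KD libraries lay above both LaminB KD libraries. The −log10 q did not overlap between AGO2 KD and mock, at 22.0 and 33.9 in mock, 6.15 and 13.2 after AGO2 KD and 16.2 and 21.3 after LaminB KD. The region ended 1028 and 942 bp after the start in mock and 914 and 958 bp after it in LaminB KD, near the end of the first exon, but 359 and 420 bp after it in AGO2 KD.

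Dl (chr3R:19302731-19326217, minus strand), which encodes the ligand Delta, carried a single narrow region at its start in every list and nothing along the rest of its 23487 bp. The region was 336 and 347 bp wide in mock, 158 and 304 bp after AGO2 KD and 294 and 267 bp after LaminB KD. Coverage was therefore small: 0.898% and 0.945% in mock, 0.362% and 0.830% after AGO2 KD and 0.779% and 0.732% after LaminB KD. Both knockdowns lay below both mock libraries, with differences of −0.326 points for AGO2 KD (pooled SD 0.235) and −0.166 points for LaminB KD (pooled SD 0.0331), each with an exact permutation p of 0.333, while the 2 knockdowns overlapped each other. AGO2 KD replicate 1 set most of the first difference: without it the difference from mock was −0.0915 points, and the other AGO2 KD library lay above both LaminB KD libraries.

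The Dl region was strong in fold for its width. Its fold enrichment was 5.18 and 4.78 in mock, 4.67 and 5.57 after AGO2 KD and 3.64 and 3.13 after LaminB KD. LaminB KD was below mock in both libraries, and in fold rank within the list it stood at the top 19.8% and 29.4%, against the top 3.57% or higher in mock. Dl was the sole member whose start region had a lower fold in both LaminB KD libraries than in both mock libraries. In AGO2 KD the −log10 q was 3.66 and 11.1, against 28.4 and 25.2 in mock, at an overlapping fold.

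Su(H) (chr2L:15039488-15043334), the DNA-binding factor that receives the Notch signal, lies in a region shared with neighbouring genes. In 5 of the 6 lists the region was 3068 to 3630 bp wide, began at −2908 to −2823 bp from the Su(H) start and also touched CIAPIN1 and yellow-c, so that Pol II of the neighbours and of Su(H) cannot be separated there. In AGO2 KD replicate 1 a separate region of 173 bp, from 64 to 236 bp after the Su(H) start, was all that was called over the gene. Coverage was 6.13% and 7.82% in mock, 4.50% and 6.37% after AGO2 KD and 19.2% and 8.42% after LaminB KD. AGO2 KD overlapped mock, with a difference of −1.55 points, a pooled SD of 1.26 and an exact permutation p of 0.667.

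Su(H) was the sole member with higher coverage in both LaminB KD libraries than in both mock libraries. The difference was 6.84 points, with a pooled SD of 5.46 and an exact permutation p of 0.333. It rested on LaminB KD replicate 1, in which the region reached 738 bp into the gene, against 323 bp in LaminB KD replicate 2 and 235 and 300 bp in mock. Without LaminB KD replicate 1 the difference was 1.44 points. The −log10 q of this higher region was 13.8, below the 20.0 and 22.4 of the mock regions.

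E(spl)mbeta-HLH and E(spl)m3-HLH, which encode basic helix-loop-helix repressors, were the sole E(spl) members with called Pol II S2. E(spl)mbeta-HLH (chr3R:26005046-26006023, minus strand) had coverage of 22.3% and 23.5% in mock, 14.4% and 17.3% after AGO2 KD and 25.6% and 18.8% after LaminB KD. E(spl)m3-HLH (chr3R:26021823-26023127) had 16.7% and 15.5% in mock, 9.81% and 12.9% after AGO2 KD and 16.1% in both LaminB KD libraries. For both genes AGO2 KD lay below mock and below LaminB KD without overlap, while LaminB KD and mock overlapped.

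The difference of AGO2 KD from mock was −7.06 points at E(spl)mbeta-HLH (pooled SD 1.56) and −4.75 points at E(spl)m3-HLH (pooled SD 1.65), each with an exact permutation p of 0.333. With the gene span extended by 500 bp on both sides these were −27.6 and −12.5 points. With regions of 300 bp or more they were −14.3 and −9.66 points. That setting drops the AGO2 KD replicate 1 regions, of 255 and 175 bp. With the gene span taken without its first 500 bp both differences were 0, since no region was called there. Against LaminB KD the differences were −6.34 and −4.75 points, the first being −2.97 without LaminB KD replicate 1 and −9.71 without LaminB KD replicate 2. LaminB KD differed from mock by −0.716 points at E(spl)mbeta-HLH (pooled SD 3.43) and by 0 at E(spl)m3-HLH (pooled SD 0.613), both with p = 1 in the exact test. Because these genes are short, at 978 and 1305 bp, a few points of coverage correspond to short shifts at the edge of a region: the E(spl)mbeta-HLH region ended 217 and 229 bp after the gene start in mock and 140 and 168 bp after it in AGO2 KD.

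At both genes the region lay mostly upstream of the gene start, in all lists except AGO2 KD replicate 1. At E(spl)mbeta-HLH it began at −560 and −629 bp from the start in mock, at −567 and −610 bp in LaminB KD, and at −114 and −430 bp in AGO2 KD. In mock and LaminB KD it also touched the non-coding gene lncRNA:CR45039, and in AGO2 KD it did not. At E(spl)m3-HLH it began at −921 and −963 bp in mock and touched lncRNA:CR43644, as it did in all lists except AGO2 KD replicate 1, where a region of 175 bp around the start was left. Where a region touched a non-coding gene, Pol II of that gene and of the E(spl) gene cannot be separated. In both E(spl) genes the narrowest region was that of AGO2 KD replicate 1, at 255 and 175 bp. Fold enrichment at E(spl)mbeta-HLH was higher in AGO2 KD, at 3.40 and 3.15, than in mock, at 2.64 and 2.71, where the regions were wider.

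**Figure D2:**
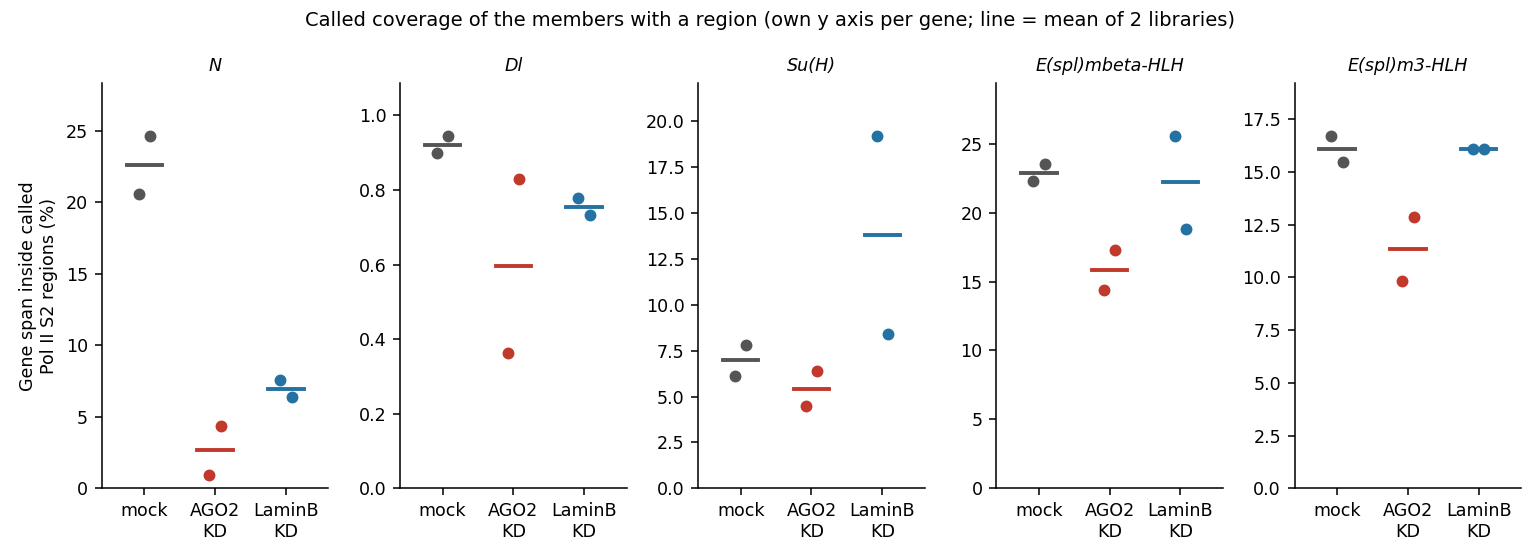
Coverage in percent of the gene span for the 5 members with a called region, 1 panel and 1 y axis per gene, points for the 2 libraries of each group and a line at their mean. N lies at 20.6% or more in mock, at most 4.39% after AGO2 KD and at most 7.58% after LaminB KD, whereas E(spl)mbeta-HLH and E(spl)m3-HLH are lower in AGO2 KD alone and Su(H) has 1 high LaminB KD library at 19.2%.

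The E(spl) complex spans 43.4 kb from the start of E(spl)mdelta-HLH to the end of E(spl)m8-HLH, with the co-repressor gene gro next to it. Between E(spl)mdelta-HLH and gro, 5 regions were called in each mock and each LaminB KD list, 2 in AGO2 KD replicate 1 and 4 in AGO2 KD replicate 2, and they covered 7.31% and 7.19% of that stretch in mock, 0.986% and 5.25% after AGO2 KD and 6.94% and 7.21% after LaminB KD. Called Pol II S2 was thus confined to a few places: the starts of E(spl)mbeta-HLH, E(spl)m3-HLH and E(spl)m2-BFM, and 2 places outside any protein-coding gene, near lncRNA:CR45038 and 10641 to 11282 bp from the start of the complex, the last of which was called in neither AGO2 KD list. Of the genes of the complex that are not members, E(spl)m1 (listed as Kaz-m1, a Kazal-type protein), E(spl)m4-BFM, E(spl)m5-HLH and E(spl)m6-BFM had no region in any list.

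E(spl)m2-BFM, of the Bearded family, had coverage of 17.3% and 20.1% in mock, 0% and 13.2% after AGO2 KD and 19.6% and 20.6% after LaminB KD. It was below mock and LaminB KD in both AGO2 KD libraries, and LaminB KD overlapped mock. The neighbour gro, which encodes the Groucho co-repressor, had 44.8% and 47.2% in mock, 4.31% and 20.8% after AGO2 KD and 26.4% and 39.2% after LaminB KD. At gro both knockdowns lay below mock, as they did at N, and regions in its downstream portion, present in mock and LaminB KD, were not called in AGO2 KD.

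**Figure D3:**
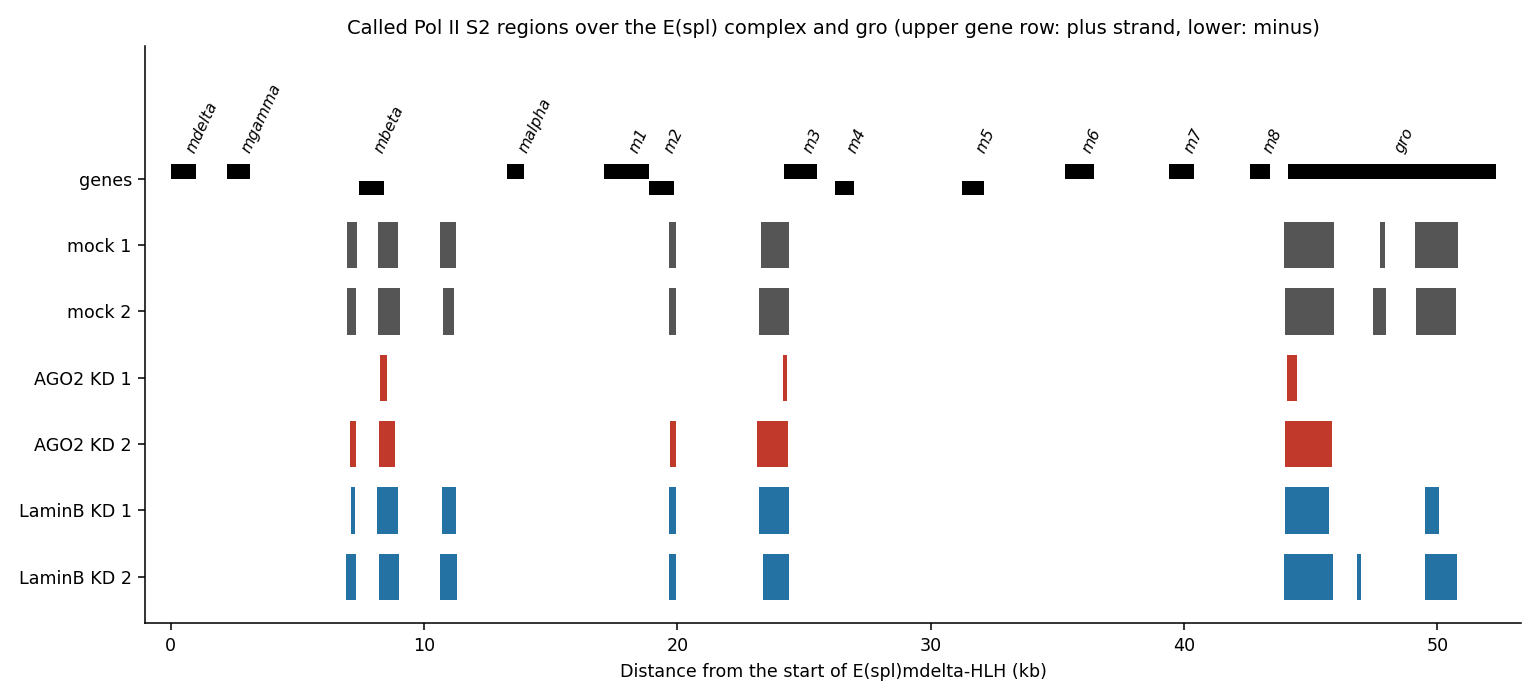
Called regions in the 6 lists over the E(spl) complex and gro, drawn to scale in kb from the start of E(spl)mdelta-HLH, with protein-coding genes on top (plus strand in the upper row, minus strand in the lower). Before gro, the same 5 places carry a region in the mock (grey) and LaminB KD (blue) lists, AGO2 KD (red) has 2 and 4 regions there, and no list has a region over mdelta, mgamma, malpha, m1, m4, m5, m6, m7 or m8.

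A gene was counted as lower or higher when both libraries of the first group lay below or above both of the second, and, with a margin, when they did so by at least 25 percentage points. In AGO2 KD against mock, 4 of the 10 members were lower (N, Dl, E(spl)mbeta-HLH and E(spl)m3-HLH), against 41.5% of all genes, and 0 were higher, against 0.0286%. In LaminB KD against mock, 2 were lower (N and Dl), against 20.8% of all genes, and 1 was higher (Su(H)), against 2.03%. In AGO2 KD against LaminB KD, 4 were lower (N, Su(H), E(spl)mbeta-HLH and E(spl)m3-HLH), against 34.4% of all genes, and 0 were higher, against 0.0716%. The shares of lower members were close to those of all genes, and the count of higher members in LaminB KD is a single gene that rested on 1 library, so none of these counts sets the 10 genes apart. The 2 comparisons with mock use the same mock libraries.

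With the margin of 25 points, 0 members were lower in AGO2 KD than in mock, against 14.4% of all genes, and 0 were higher, against 0%. The counts were also 0 and 0 in LaminB KD against mock, against 1.7% and 0.1% of all genes, and 0 and 0 in AGO2 KD against LaminB KD, against 8.6% and 0%. No member could reach the margin downwards from mock, since mock coverage of N and E(spl)mbeta-HLH, the most covered members, was below 25%. The median difference of the 10 members in AGO2 KD against mock was −0.163 points, beside −0.273 over all genes. Among those with a region in the 4 lists compared it was −4.75 over 5 members and −22.7 over all such genes. In LaminB KD against mock the latter medians were −0.166 and −1.91 points.

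The order of the members by coverage, with all regions kept, differed between groups. In mock, E(spl)mbeta-HLH (mean 22.9%) and N (22.6%) did not separate, and both stood above E(spl)m3-HLH (16.1%), Su(H) (6.98%) and Dl (0.922%). In AGO2 KD the order was E(spl)mbeta-HLH (15.8%), E(spl)m3-HLH (11.3%), Su(H) (5.43%), N (2.67%) and Dl (0.596%), each neighbour separated from the next in both libraries. In LaminB KD it was E(spl)mbeta-HLH (22.2%), E(spl)m3-HLH (16.1%), Su(H) (13.8%), N (6.97%) and Dl (0.756%), and E(spl)m3-HLH and Su(H) overlapped. In this setting N thus moved from a place beside E(spl)mbeta-HLH in mock to the last place but Dl in both knockdowns. Keeping only the strongest 4122 regions per list left N differences from mock of −3.61 points (AGO2 KD) and −2.19 points (LaminB KD). Those at Su(H), E(spl)mbeta-HLH and E(spl)m3-HLH did not change. The place of N beside E(spl)mbeta-HLH in mock therefore depended on weaker regions, and the order without them was not worked out.

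All 5 covered members had their region at the gene start, and outside the first 500 bp a region was called over N and, in LaminB KD replicate 1, over Su(H). Start regions were compared by 4 of their properties. The −log10 q was below mock in both AGO2 KD libraries for 5 of the 5 members, the width for 4 (all but E(spl)m3-HLH) and the distance reached into the gene for 4 (all but Su(H)), but the fold enrichment for 0. Over the 10 start regions of each group, the median fold was 3.56 in mock, 3.54 after AGO2 KD and 3.23 after LaminB KD, while the median −log10 q was 21.0, 5.91 and 12.2. In LaminB KD, the −log10 q was below mock in both libraries for 4 of the 5 members, and the width, the distance reached and the fold for 1 each, Dl in all 3 cases. The AGO2 KD regions at these starts were thus of lower −log10 q at a fold enrichment that overlapped mock or, at E(spl)mbeta-HLH, was above it. The same counts were not made for the start regions of all genes, so they do not set the members apart. For all regions with a fold of 3 to 3.5, the median −log10 q was 2.09 and 4.71 in AGO2 KD. It was 13.0 and 12.8 in mock. MACS2 averages the fold over the region, so folds of regions that differ in width are not measured over the same bases.

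**Figure D4:**
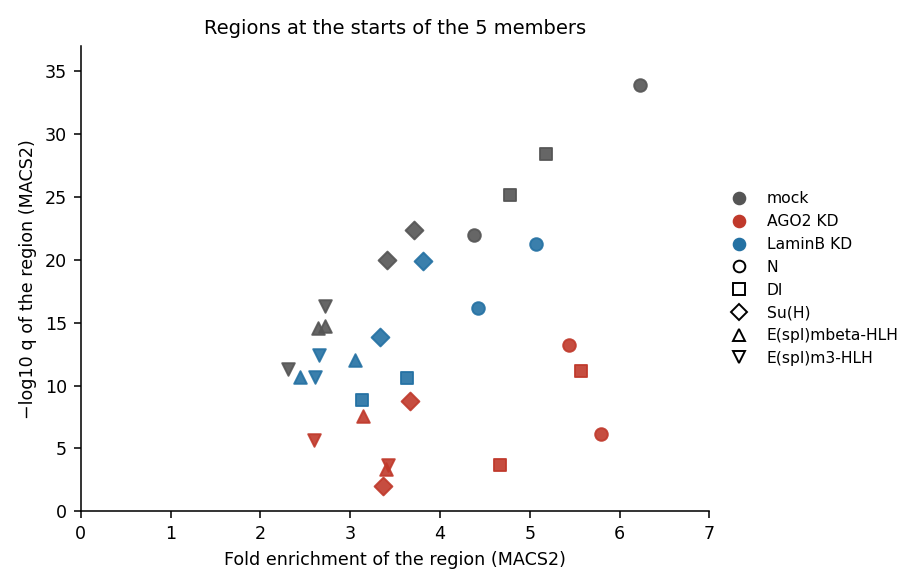
Fold enrichment (x axis) and −log10 q (y axis) of the region at the start of the 5 covered members, 1 point per library, with colour for the group and marker shape for the gene. The groups share the range of fold, with medians of 3.56 in mock, 3.54 after AGO2 KD and 3.23 after LaminB KD, but AGO2 KD points lie lower on the y axis, at 1.99 to 13.2 against 11.3 to 33.9 in mock.

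Other genes of the pathway were taken from a list of 40 names, from ligand processing to targets, of which 38 matched the gene models (BobB and BobC did not). Of these 38, 28 had a region in both mock lists and 7 had none in any list: Hey, dpn and vg, which are Notch targets in other tissues, and Brd, Tom, Ocho and BobA of the Bearded family. In AGO2 KD against mock, 27 of 38 (71.1%) were lower and 0 higher. In LaminB KD against mock, 14 were lower and 0 higher, and in AGO2 KD against LaminB KD 24 were lower and 0 higher. Genes with a region were more frequent in this list than among all genes, so the share among those with a region is the closer comparison: 87.1% of 31 genes were lower in AGO2 KD than in mock, beside 76.8% of all such genes, 45.2% were lower in LaminB KD than in mock, beside 38.2%, and 80% were lower in AGO2 KD than in LaminB KD, beside 66.5%. The median difference in AGO2 KD among genes with a region was −22.4 points in the list and −22.7 over all genes.

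By role, the lower genes in AGO2 KD against mock were Ser, the second Notch ligand, all 4 genes of ligand endocytosis and activity (neur, mib1, lqf and aux), 2 of 3 genes of receptor glycosylation, 4 of 5 genes of receptor cleavage and all 5 genes of receptor traffic and turnover. They also included all 3 co-activators (mam, nej and Bx42), all 4 co-repressors (H, gro, CtBP and Smr), 4 of 9 other targets and 0 of 4 Bearded family genes. Of all genes with a region, 76.8% were lower. Of the 9 other targets 6 had a region, and of the 4 Bearded family genes 0 did. The share of 76.8% therefore stands beside 4 of 6 other targets, and it has no counterpart in the Bearded family. In LaminB KD against mock, the share over all genes with a region was 38.2%. The lower genes were Ser, 1 of 4 genes of ligand endocytosis and activity and 0 of 3 of receptor glycosylation. Also lower were 1 of 5 genes of receptor cleavage, 3 of 5 of receptor traffic and turnover and 1 of 3 co-activators. So were 4 of 4 co-repressors and 3 of the 6 other targets with a region. Coverage of Ser was 25.8% and 27.7% in mock, 0.577% and 3.95% after AGO2 KD and 9.38% and 9.69% after LaminB KD, an order of groups like that of N.

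By the margin of 25 points, 4 of the 38 genes (10.5%) were lower in AGO2 KD than in mock, against 14.4% of all genes. O-fut1, whose product adds O-linked fucose to Notch, had 100% in both mock libraries and 11.3% and 33.7% in AGO2 KD. The string phosphatase gene stg, which drives entry into mitosis, had 100% in both mock libraries and 33.5% and 39.7% in AGO2 KD. Both were covered to at least 95.3% in the LaminB KD libraries. Su(dx), a ubiquitin ligase that acts on Notch, had 60.0% and 59.1% in mock, 12.6% and 20.5% after AGO2 KD and 38.3% and 34.5% after LaminB KD. Coverage of mib1, a ubiquitin ligase that acts on the ligands, was 47.2% and 42.1% in mock, 4.16% and 15.0% after AGO2 KD and 35.3% and 31.0% after LaminB KD. In LaminB KD against mock 0 genes of the list passed the margin, against 1.7% of all genes lower and 0.1% higher. In AGO2 KD against LaminB KD 3 were lower by the margin (7.89%), O-fut1, stg and rumi, against 8.6% of all genes. The last of these encodes a glucosyltransferase acting on Notch. It was at 0% in both AGO2 KD libraries against 40.2% and 48.0% in LaminB KD. In mock rumi was at 0% and 64.0%, so that AGO2 KD and mock overlapped.

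**Figure D5:**
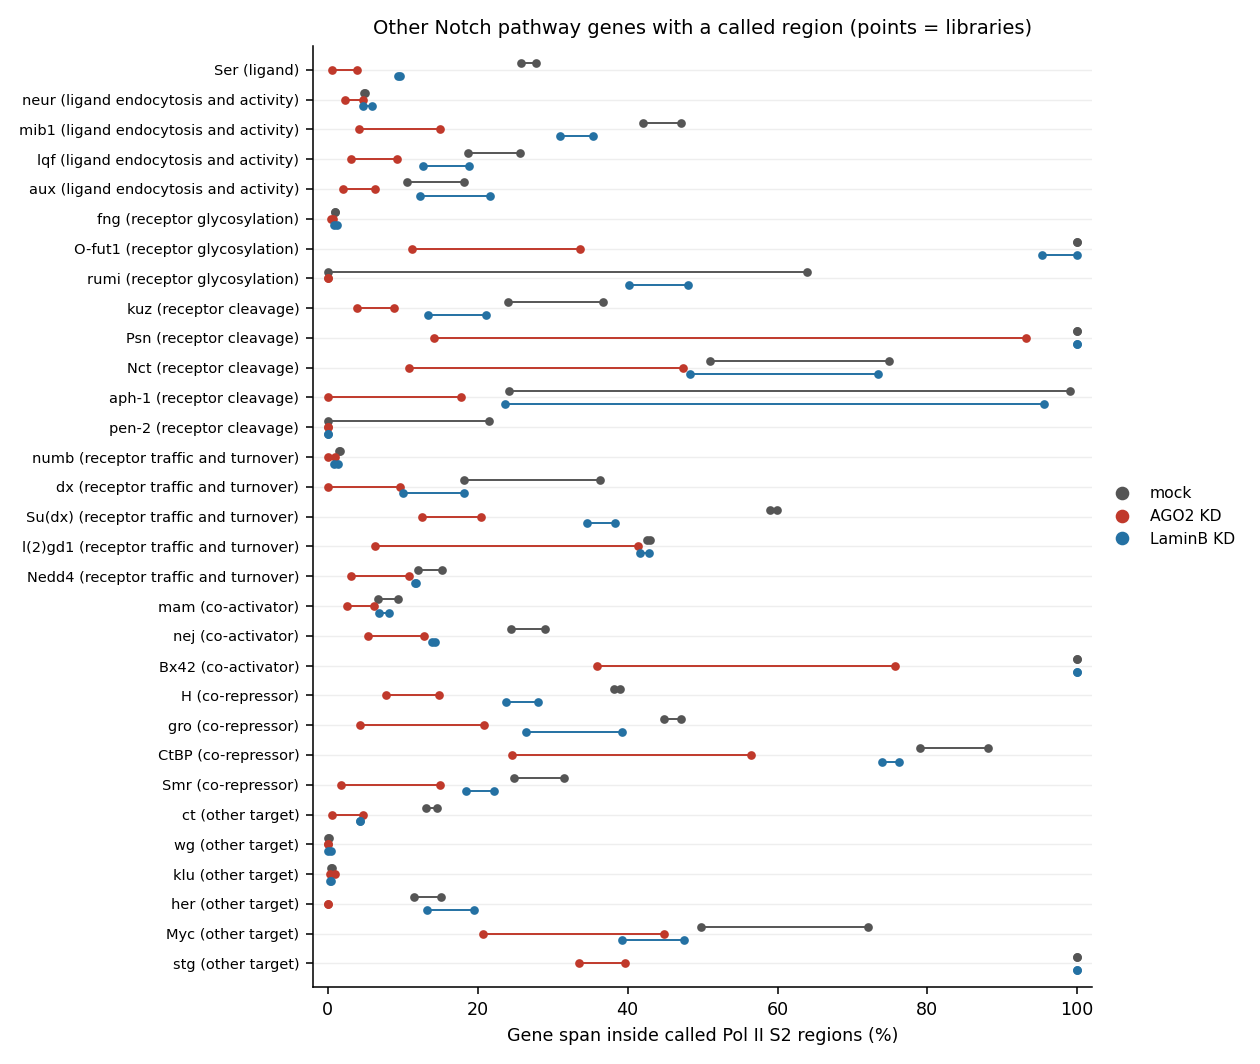
Coverage in percent of the gene span for the 31 other pathway genes with a called region, with a point for each library and a line joining the 2 libraries of a group. Both AGO2 KD libraries (red) lie to the left of both mock libraries (grey) for 27 of the genes, from stg and O-fut1 at 100% in mock to genes under 5%, while both LaminB KD libraries (blue) do so for 14.

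The genes whose coverage over the 6 lists was most like that of N, by root mean square difference over all protein-coding genes, were CG5262 (1.69 points), MED25 (1.74 points), which encodes a Mediator subunit, and lbk (1.83 points). For Dl they were CG42346, CG7991 and MYPT-75D, at 0.0677 to 0.0986 points. For Su(H) they were Tep4, TAF1B and CG6163, at 2.15 to 3.13 points. Tep4 had the same single high library as Su(H), at 15.2% in LaminB KD replicate 1 against 8.38% in LaminB KD replicate 2. These are likenesses over 6 libraries and were selected from all genes, so they carry no test.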

How the data were processed

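Pol II S2 ChIP-seq regions were analysed for 6 IP libraries of Kc167 cells. The submitters' processing notes name cutadapt 1.10, Bowtie2, Picard 2.11.0 and MACS2 2.1.1.20160309. The authors aligned reads to dm6, removed multimapping reads and duplicates, and called broad regions for each replicate separately against input. Which input entered each call is not stated, and the inputs were not analysed here alone. The deposited lists give for each region a score (10 times −log10 q), the fold enrichment, a ratio of IP to expected background, and the −log10 p and −log10 q, averaged over the region by the authors' MACS2. They hold no read counts, so the authors' DiffBind analysis could not be repeated and depth is unknown.

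Coverage was computed with Python 3.11.15, numpy 2.4.6 and pandas 2.3.3 (figures with matplotlib 3.10.9) over Ensembl release 115 gene spans. Positions were counted from 1. All 10 members have the same coordinates in RefSeq dm6, from which promoters were read. Each group of 2 libraries was set against another with a two-sided exact permutation test, and calls required groups that did not overlap. The code was tested on simulated regions. All members were named, with other E(spl) genes that had a region, genes sharing a region with a member, genes of the wider list past the margin of 25 points, and the 3 genes most like N, Dl and Su(H). Values of rumi, Ser, and the list genes given by role were added after their values were seen. The members and lists were chosen with earlier results of these data known. Alternatives changed the regions kept, the gene span, the minimum width, the libraries and the pairing.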

Additional observations from a re-analysis of the deposited data

How the results depend on the processing

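Of 33 counts of lower members under the alternatives, 29 stayed within 1.5 times the value reported and 4 did not, and no alternative made the difference of any of the 5 covered genes positive in AGO2 KD against mock. Counts with the margin of 25 points were 0 throughout and say nothing on stability. With the gene span taken without its first 500 bp, the lower members were 1 in AGO2 KD against mock, beside 33.7% of all genes. They were 1 in LaminB KD against mock, beside 16.5%, and 1 in AGO2 KD against LaminB KD, beside 27.8%. The higher members in LaminB KD against mock were 0, beside 1.45%. All these counts fell because start regions are then left out. With 4122 regions in each list, 1 member was lower in LaminB KD against mock, beside 13.1% of all genes. Leaving out each library in turn gave 4 to 5 lower members in AGO2 KD against mock, beside 41.6% to 49.5% of all genes. It gave 2 to 3 in LaminB KD against mock, beside 27.2% to 28.5%, and 4 to 5 in AGO2 KD against LaminB KD, beside 34.5% to 46.6%. Higher members were 0 to 0, 1 to 2 and 0 to 1. The shares of all genes were 0.0501% to 1.81%, 5.02% to 6.19% and 0.0788% to 3.77%. The 2 higher members in LaminB KD against mock arose without LaminB KD replicate 2 or without mock replicate 1, and the 1 in AGO2 KD against LaminB KD without AGO2 KD replicate 1. Of the single genes, E(spl)mbeta-HLH in LaminB KD against mock ranged from −4.09 to 2.66 points without 1 library, and Dl in AGO2 KD against LaminB KD was 0.415 points with regions of 300 bp or more and from −0.394 to 0.0745 points without 1 library. The cause was not tested.

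Same-numbered replicates did not deviate together (correlations of −0.0319, 0.0572 and −0.0392 over 7611 genes). With 2 libraries a group this cannot exclude that same-numbered samples were paired. With a replicate block, 5 members were lower in AGO2 KD against mock, 2 in LaminB KD against mock and 4 in AGO2 KD against LaminB KD. The shares of all genes were 43.1%, 25.1% and 36.9%. The limits are 2 libraries a group and an unknown depth.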
